A study of Mus musculus with 10 samples.

Results

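Interleukins and interleukin receptors were followed in the lungs of mice that had breathed cigarette smoke or room air. The set holds every gene on the array whose symbol, in the scanner files or as it stands today, begins with Il and a number, apart from Il1b, Il1rn, Il6 and Il8rb, which its rule leaves out. It came to 81 of 27670 genes, measured by 122 of 41174 probes. Ligands made up 37 members (46 probes), and receptors or binding proteins 41 (73 probes). The remaining 3 matches were Cxcr1, a chemokine receptor of neutrophils that the files call Il8ra, Il4i1, a secreted enzyme that oxidizes amino acids, and Il1bos, an antisense transcript. Il33, Il34, Il20rb, Ifnl3 and Ifnlr1 were found under older names, and Il1f5, Il1f6, Il1f8, Il1f9 and Il1f10 are the names under which the array carries the interleukin-36 ligands, their antagonist and interleukin-38.

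Each group held 5 female mice of the inbred strain BALB/c. The RNA of every homogenized lung was measured on an array of its own. Mice of the smoke group received the smoke of 12 cigarettes per exposure in 2 exposures of 50 minutes a day, on 5 days a week for 8 weeks, and mice of the control group breathed room air over the same 8 weeks. All were bought at an age of 6 to 8 weeks, and no mouse carried a transgene or received another agent according to the labels. The comparison asks which genes of the lung respond to the smoke.

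Each member is described by its log ratio, the log2 of the red over the green signal of a spot after normalization. Although 1 dye is given in the labels, the scanner files hold 2 channels, and genes of lung cells and of the Y chromosome were used to tell what each channel measured. Red exceeded green by 6.39 log2 units for Sftpc, the surfactant protein of alveolar type 2 cells, by 6.72 for Scgb1a1, the club cell secretory protein, and by 4.83 for Ager, a marker of alveolar type 1 cells (means over 10 arrays). For Ddx3y, Eif2s3y and Kdm5d, which lie on the Y chromosome, red minus green was -6.95, -7.00 and -4.06. Red was accordingly read as lung and green as a common reference whose source the labels do not give. The direction of every difference rests on this reading and on the groups that the scanner files name. In the deposited table of log2 values, each column equals the array of the same number in the other group (100% of its values). Under the assignment of that table every direction given here would be the opposite, and the files alone do not settle which is right. Outside the files, the study reports Mmp12, Cyp1b1, Trem2 and Spp1 as raised by smoke in these mice. Under the groups of the scanner files these genes were higher with smoke by 2.33, 3.06, 3.03 and 2.91. The published direction for these 4 genes is thus that of the scanner files. For the mice it rests on the same lungs, but the study also reports the human counterparts of these genes as raised in lungs of smokers, who were measured apart, and its table lists only genes raised in both species. The 10 arrays lay on 5 slides, each with a smoke array at place 1 and a room air array at place 2, so the place on the slide and the group cannot be told apart. Between 64.9% and 77.5% of the red spots of an array were well above background by the scanner software, and a member is called expressed on an array where its red spot was.

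Interleukins are secreted proteins through which leukocytes, epithelium and stroma signal to each other, and most act through receptors built from a private chain and a chain shared by several ligands, such as the common gamma chain or gp130. Receptors of the interleukin-1 family signal through Myd88 to NF-kB, whereas most others signal through JAK kinases and STAT factors. In the lung, epithelial and stromal cells hold interleukin-33 and interleukin-1 alpha ready for release upon damage, interleukin-18 is matured by the inflammasome of macrophages, and interleukin-17 is known for recruiting neutrophils through the epithelium.

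Of the 81 members, 9 rose with smoke, 1 fell and 71 did not pass the threshold, which was an adjusted p of 0.05 by limma over 41173 probes. The members that rose were the ligands Il18 and Il12b, the receptors Il1r2, Il1rl2, Il7r, Il12rb1, Il10rb and Il17rb, and the chemokine receptor Cxcr1. The receptor Il18r1 fell. The share of members that rose was 11.1%, against 4.96% of all 27669 genes tested, and the share that fell was 1.23%, against 3.27%. By role, 2 of 37 ligands rose (5.41%) and 0 fell, while 6 of 41 receptors rose (14.6%) and 1 fell (2.44%). The groups did not overlap for 6 members, Il18, Il1rl2, Il7r, Il12rb1, Il17rb and Cxcr1, all of them higher with smoke. That is 7.41% of the members, near the 7.89% of all genes whose groups did not overlap in either direction. The median difference was 0.033 over the members, 0.026 over the ligands and 0.054 over the receptors, against -0.0042 over all genes. The middle of the set thus lay close to that of all genes, and the large differences stood in a few members.

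Across the array 2906 probes passed the threshold, 1793 higher and 1113 lower with smoke, and with median centring in place of loess the split was 687 higher and 747 lower. With the slide as a block, 12 members were higher (14.8%, against 7.52% of all genes) and 3 lower (3.7%, against 6.27%). With the exact Wilcoxon test 0 probes passed, although 5446 had an unadjusted p under 0.05, since the smallest exact p that 5 lungs against 5 can give, 0.00794, became 0.115 after adjustment.

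**Figure D1:**
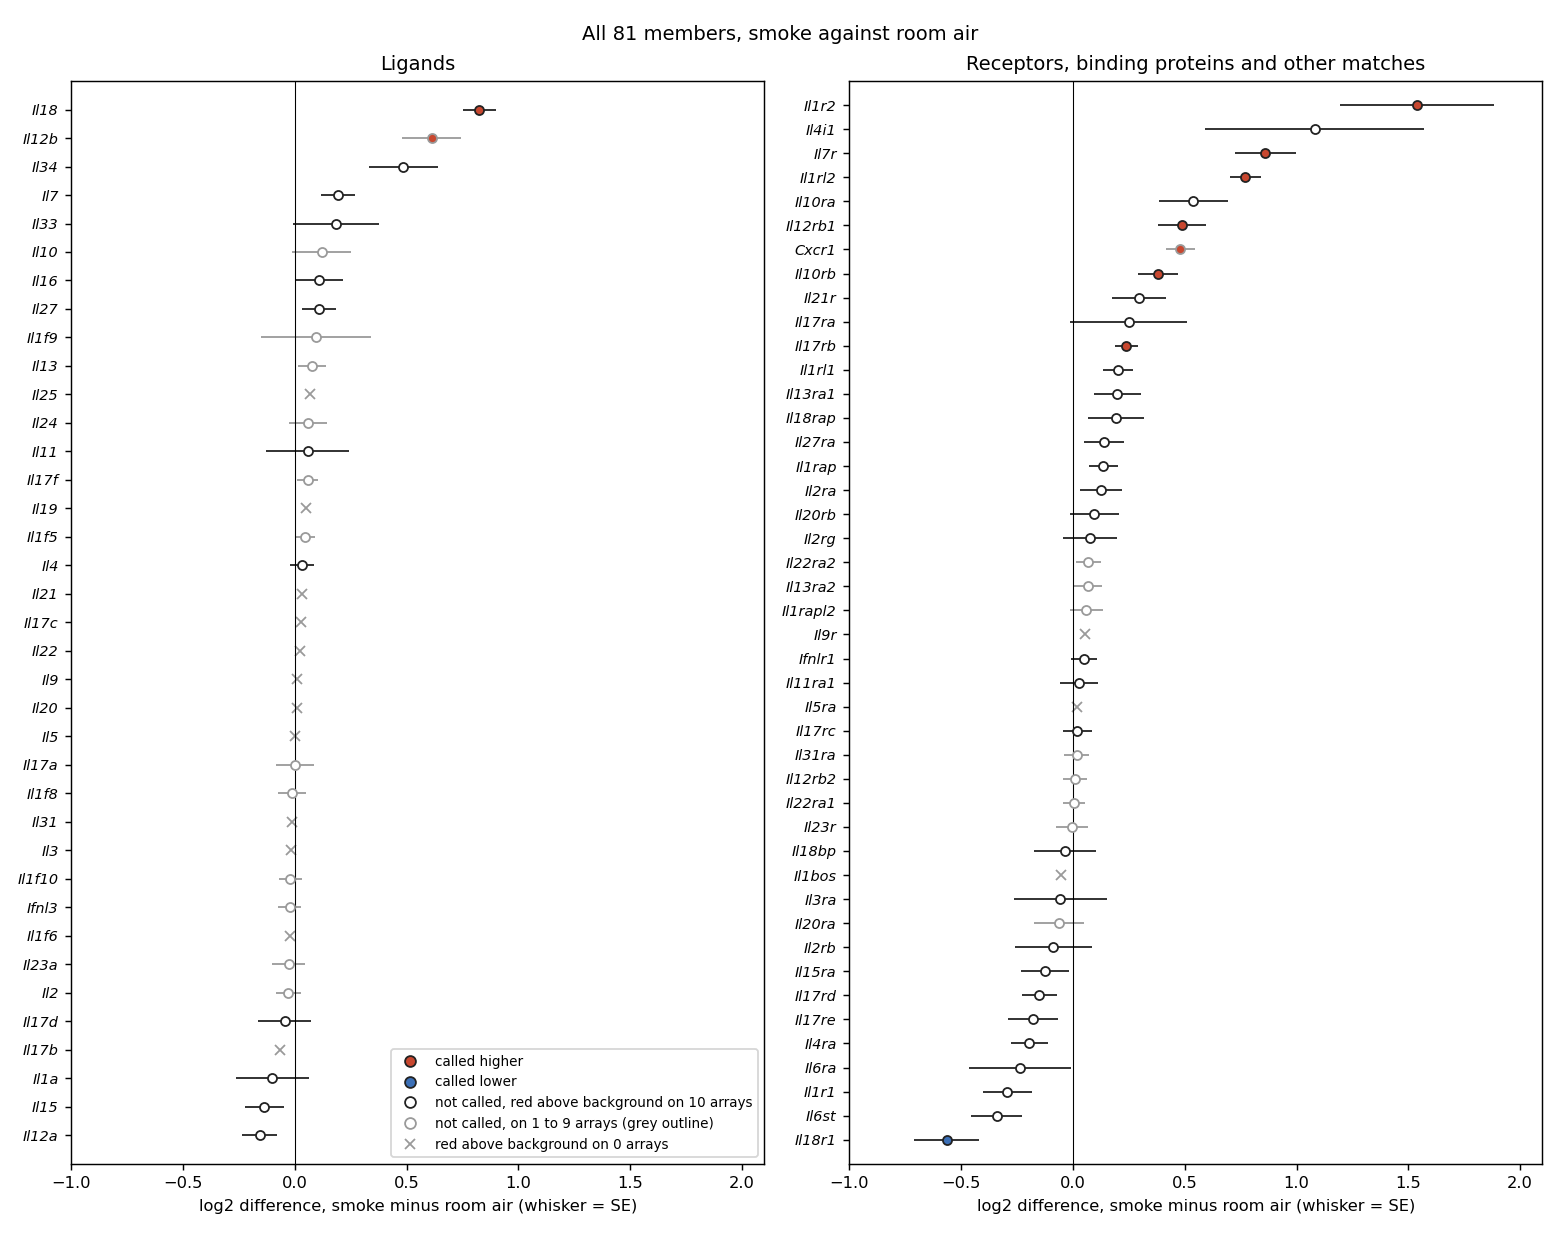
Difference in log ratio, smoke minus room air (log2), for each of the 81 members, with ligands on the left and all other members on the right. Whiskers are the SE of the difference (n = 5 per group), filled points passed the threshold, and crosses mark members with no red spot above background on any array. Il1r2 lies highest at 1.54 and Il18r1 lowest at -0.57, and the 12 ligands without signal lie close to 0.

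Room air replicate 1 stood apart from the other lungs of its group for many members. Of the 44 members expressed on all 10 arrays, it was the highest room air lung for 21, against 2, 7, 8 and 6 for replicates 2 to 5. Its log ratio exceeded the mean of the other 4 room air lungs by more than 0.5 for 14 members, of which 5 were ligands and 8 receptors, and fell short by as much for 0. The excess was 2.86 for Il4i1, 1.98 for Il1r2, 1.42 for Il1f9 and 1.04 for Il33. These 4 genes are an enzyme, a decoy receptor and a pair of epithelial cytokines, so the excess was not limited to a single role. Marker genes moved in the same lung, as the neutrophil list had a mean log ratio of 3.04 there, against 1.59 to 1.90 in the other room air lungs and 2.09 to 2.60 in the smoke lungs. The mean of the alveolar macrophage list was 3.47 in this lung, between the 3.03 to 3.30 of the other room air lungs and the 3.86 to 4.37 of the smoke lungs. The same lung was above both groups in the mean of the JAK and STAT list (0.62, against 0.17 to 0.23 in the other room air lungs and 0.25 to 0.35 with smoke), of the interleukin-1 receptor signalling list (0.61, against 0.064 to 0.15 and 0.23 to 0.36) and of the interleukin-17 signalling list (1.25, against 0.60 to 0.84 and 0.84 to 1.00). So it was for the SOCS list (0.78), the type 2 list (0.96) and the inflammasome list (0.29, against -0.30 to -0.18 and 0.11 to 0.24). In the fibroblast list it was the lowest of its group (0.081, against 0.27 to 0.46). The part of any cell type in the excess was not tested.

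Without room air replicate 1, 15 members were higher with smoke and 0 lower, namely 5 ligands, 8 receptors and 2 other members. These are 18.5% and 0% of the members, against 6.23% of all genes higher and 4.12% lower in the same setting, where 3660 probes passed in place of 2906. Among the members that passed then but not in the main comparison, Il4i1 differed by +1.65 (3.14-fold, adjusted p 9.97e-07). Il34 did so by +0.65 (1.57-fold, adjusted p 0.000136) and Il1f9 by +0.38 (1.30-fold, adjusted p 0.00181). The others were Il10ra, at +0.67 (1.59-fold, adjusted p 0.00475), Il13ra1, at +0.31 (1.24-fold, adjusted p 0.00835), and Il33, at +0.39 (1.31-fold, adjusted p 0.016). Il34 and Il10ra also passed with all 10 lungs under other settings, such as the slide as a block (adjusted p 0.0327 and 0.0138). With scaling between arrays their adjusted p was 0.0425 and 0.0336. Il18r1 lost its call without room air replicate 1 (adjusted p 0.0602). Values of all these members are therefore given with and without that lung.

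**Figure D2:**
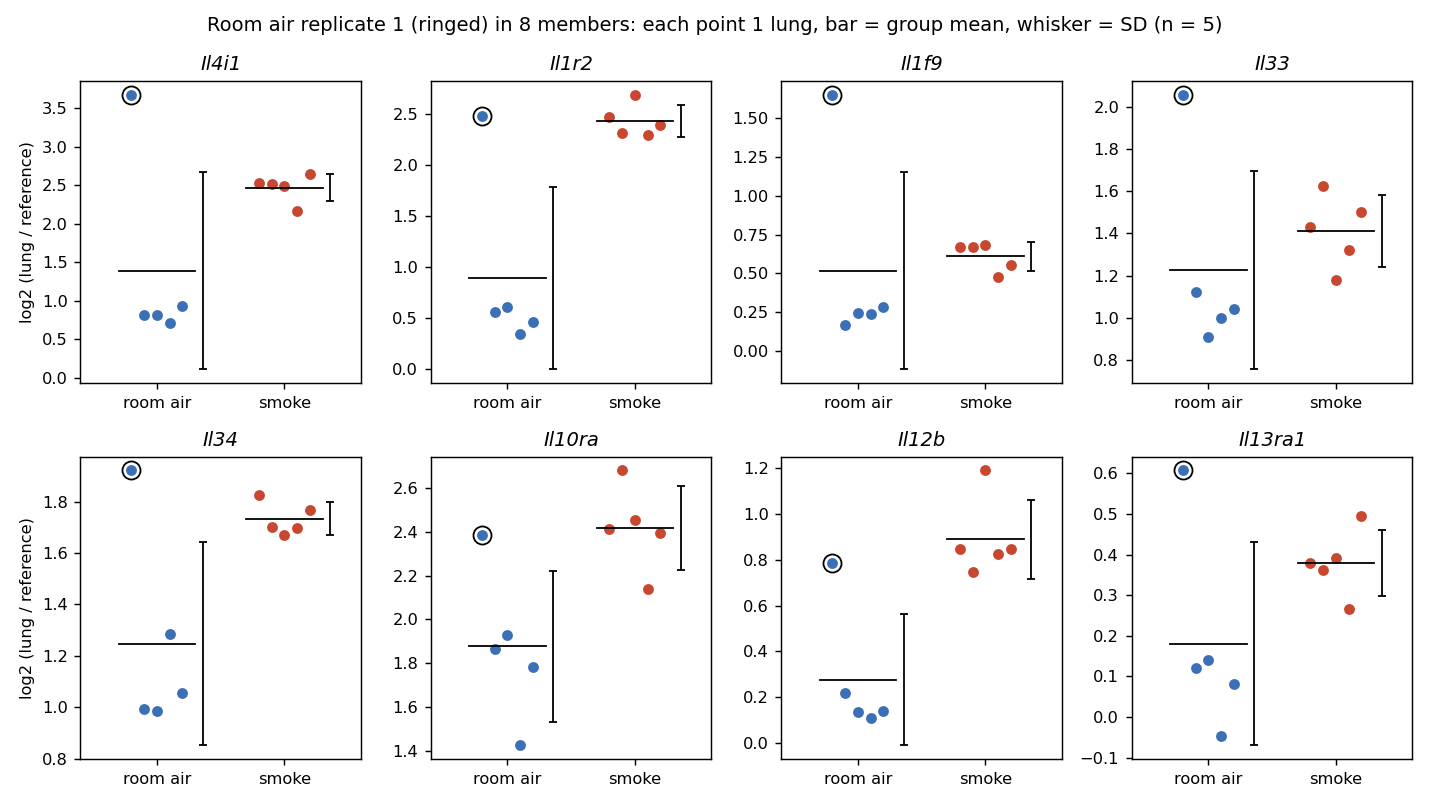
Log ratio (log2, lung over reference) of 8 members in each lung, with room air replicate 1 ringed, group means as bars and the SD as whiskers (n = 5). For Il4i1 the ringed lung reads 3.67 and the other room air lungs 0.71 to 0.94, while the smoke lungs lie between 2.16 and 2.64.

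Expression divided the ligands evenly. Of 37, 12 were expressed on all 10 arrays, 13 on some and 12 on none. The ligands without signal were Il1f6, Il19, Il20, Il22, Il17b, Il17c, Il25, Il3, Il5, Il21, Il9 and Il31, several of which, such as Il5, Il9, Il21 and Il22, are made by activated lymphocytes, and their differences spanned -0.065 to 0.069. For these genes the array gave no signal above background, which is a limit of the measurement and says nothing of whether the gene is active in a few cells.

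Il18 encodes a cytokine of the interleukin-1 family that is made as an inactive precursor, cleaved by caspase-1, and known for driving interferon gamma production in T and NK cells. Its log ratio in room air lungs 1 to 5 was 1.70, 1.68, 1.82, 1.64 and 1.82. In smoke lungs 1 to 5 it was 2.53, 2.45, 2.79, 2.40 and 2.62. The groups did not overlap, and the lowest smoke lung stood well clear of the highest room air lung. Il18 rose by 0.82 ± 0.075 (difference of means ± SE, n = 5 per group), which is 1.77-fold, with an adjusted p of 6.95e-05 and smoke above room air on 5 of 5 slides. The probe was printed as 10 spots on each array, and the SD between the spots of an array was 0.071 to 0.158, much less than the rise. Because the lungs were measured whole, more cells of a type and more RNA per cell cannot be told apart, here or for any other member.

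Il12b encodes the p40 chain that interleukin-12 and interleukin-23 share, and is made mainly by macrophages and dendritic cells. Room air lungs 1 to 5 had log ratios of 0.78, 0.22, 0.14, 0.11 and 0.14, and the probe was above background in 3 of these 5 lungs. Smoke lungs 1 to 5 had 0.85, 0.75, 1.19, 0.82 and 0.84, all 5 above background. Room air replicate 1 overlapped the smoke group, and the other room air lungs lay far below it. Il12b rose by 0.61 ± 0.131, 1.53-fold (adjusted p 0.0155, higher on 5 of 5 slides), and without room air replicate 1 the difference was 0.74 (adjusted p 0.00021). The signal was dim, and the size of the rise depended on how background was treated: the ratio of the scanner software gave 2.30 with an adjusted p of 0.0505, and an offset of 10 in place of 50 gave 1.13. Its partner chains were not called, as Il12a, the p35 chain of interleukin-12, differed by -0.16 (adjusted p 0.336), and Il23a, the p19 chain of interleukin-23, was expressed on 1 of 10 arrays.

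Sequence just upstream of the start was held by the RefSeq table for 64 members, 8 of them called, and the 250 bases before each start were searched on both strands for 6 short motifs. A gene can have several starts, as 11 of these members have, so the 64 members had 77 starts, and shares are given over starts. Among the called members Il18r1 had 3 starts, of which 1 held a match. The core of the xenobiotic response element, the letters GCGTG, was held by 28.2% of the 32851 starts in the table, by 17 of the 77 member starts (22.1%) and at a start of 2 of the 8 called members, Il17rb and Il1r2. For the AP-1 letters, spelled TGANTCA, the share of all starts was 6.75% and that of member starts 15.6% (12 starts), among them that of the called member Il17rb. The GAS element, to which STAT factors are known to bind and which was searched as TTCNNNGAA, was held by 7.02% of all starts, by 9 member starts (11.7%) and at a start of 3 called members, Il18r1, Il1r2 and Il7r. The NF-kB motif, searched as GGGA and CC with any 4 bases between them, was held by 17.6% of all starts, by 17 member starts (22.1%) and, of those called, by that of Cxcr1. Letters bound by C/EBP factors, TTGCAAT, were found at 1.96% of all starts and at 3 member starts (3.9%), among them that of the called member Il12b. A TATA box, searched as TATANAA, was found at 10.4% of all starts, at 12 member starts (15.6%) and at those of the called members Il12b, Il18 and Il1rl2. A match is a description of letters and not a site in use. The window of Il12b is printed because Il12b rose and the window overlaps no other gene (GRCm38.p6, chr11:44399813-44400062, plus strand). Capitals mark the C/EBP letters and, nearer to the start, the TATA box letters, which do not overlap.
Il12b: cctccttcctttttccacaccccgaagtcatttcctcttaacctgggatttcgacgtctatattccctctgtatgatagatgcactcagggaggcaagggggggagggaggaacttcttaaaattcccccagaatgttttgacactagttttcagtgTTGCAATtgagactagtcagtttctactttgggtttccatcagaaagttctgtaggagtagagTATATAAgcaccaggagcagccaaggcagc

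The other ligands did not pass the threshold in the main comparison of all 10 lungs. Il34, an alternative ligand of the macrophage growth factor receptor Csf1r, read 1.92, 0.99, 0.98, 1.28 and 1.06 in room air lungs 1 to 5 and 1.83, 1.70, 1.67, 1.70 and 1.77 in smoke lungs 1 to 5. Apart from room air replicate 1, every room air lung lay below every smoke lung. The difference was 0.49 ± 0.155 (adjusted p 0.097, and 0.0327 with the slide as a block). Il33, an alarmin released by damaged epithelium and endothelium, read 2.06 in room air replicate 1 and 0.91 to 1.12 in the other 4, against 1.18 to 1.62 with smoke, and its difference was 0.18 (adjusted p 0.743). The same shape appeared for Il1f9, the gamma form of interleukin-36, an epithelial cytokine, which read 1.65 in room air replicate 1, 0.16 to 0.28 in the other 4 and 0.47 to 0.68 with smoke (0.09, adjusted p 0.92). Il1a, the alarmin interleukin-1 alpha, read 1.58 in that lung and 0.63 to 0.96 in the rest of its group, but here the smoke lungs covered the same range, 0.58 to 0.98 (-0.10, adjusted p 0.855).

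Further ligands that act on lymphocytes were not called either. Il7, which keeps T cells alive, differed by 0.19 (adjusted p 0.179), and Il15, which does so for NK cells and memory T cells, by -0.14 (adjusted p 0.499). Il16, a chemoattractant for CD4 T cells, differed by 0.11 (adjusted p 0.726), and Il27, a regulator of T cell responses made by myeloid cells, by 0.11 (adjusted p 0.555). None of these 4 passed the threshold under any alternative tried. Il11, a gp130 cytokine of stromal cells, differed by 0.06 (adjusted p 0.939), and Il17d, the least studied member of the interleukin-17 family, by -0.05 (adjusted p 0.919). The classical T helper ligands gave little signal, with Il4, which drives type 2 responses, at 0.03 (adjusted p 0.856, expressed on 10 of 10 arrays) and Il13, the type 2 effector, at 0.08 (9 of 10 arrays). Il17a was expressed on 3 of 10 arrays, Il17f on 6, Il2 on 2 and Il10 on 3, and the differences of these and of Il24, Il1f5, Il1f8, Il1f10 and Ifnl3 spanned -0.029 to 0.12.

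Receptors were more widely expressed than ligands. Of 41, 31 were expressed on all 10 arrays, 8 on some and 2 on none, the last being Il5ra and Il9r, private chains for interleukin-5 and interleukin-9. Il1r2, the decoy receptor that binds interleukin-1 without signalling, had the largest difference of all members. Its log ratio was 2.48, 0.56, 0.61, 0.35 and 0.46 in room air lungs 1 to 5. Smoke lungs 1 to 5 gave 2.47, 2.31, 2.69, 2.29 and 2.39. Room air replicate 1 sat inside the smoke group, and the other 4 room air lungs formed a tight group far below it. Il1r2 rose by 1.54 ± 0.344, 2.91-fold (adjusted p 0.0197), and without room air replicate 1 by 1.94, 3.83-fold (adjusted p 2.53e-07). The call was lost when room air replicate 2 (adjusted p 0.0517), room air replicate 3 (0.0528), smoke replicate 1 (0.0502) or smoke replicate 3 (0.0512) was left out, and with the red channel alone at its 75th percentile (2.70, adjusted p 0.0585). On slide 1 smoke minus room air was -0.0070, and on the other 4 slides it was 1.76 to 2.08. A dimmer probe of the gene differed by 0.46 (adjusted p 0.114), and averaging both gave 1.00 (adjusted p 0.03).

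Il1rl2 encodes the receptor for the interleukin-36 ligands, which is found on epithelium, dendritic cells and T cells. It read 0.98, 0.99, 0.77, 1.02 and 0.87 in room air lungs 1 to 5 and 1.72, 1.48, 1.76, 1.76 and 1.76 in smoke lungs 1 to 5. The groups did not overlap, and room air replicate 1 sat among its group for this gene. Il1rl2 rose by 0.77 ± 0.070, 1.71-fold, with an adjusted p of 7.47e-05 and smoke above room air on 5 of 5 slides. The rise stood in 1 of its 2 probes: the other was not above background on any array, differed by 0.094 (adjusted p 0.231), and lay 21252 bases away on the same strand. The probe that rose is assigned to the gene by its symbol only. It is the silent probe that is assigned through a RefSeq transcript of Il1rl2, so a rise of that transcript was not seen. The opening 30 of the 60 bases of each probe are shown so that the measured transcript ends can be found again. In the array's build, mm7, the probe that rose lies at chr1:40606514-40606573 and the silent probe at chr1:40585262-40585321, both on the plus strand.
Il1rl2 probe that rose: aactgaattcacttttttggccagaaagct
Il1rl2 probe without signal: ggaagttgagtatggaagaaggatccctaa
Averaging both probes gave 0.43 (adjusted p 0.000173). Whether the probes read different transcripts of the gene was not tested. Of its ligands, Il1f6 was not expressed on any array and Il1f8 and Il1f9 on 8 and 9 of 10.

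The window before the start of Il1rl2 overlaps no other gene either and is printed for comparison with that of Il12b (GRCm38.p6, chr1:40324339-40324588, plus strand). Capitals mark the only match to the 6 motifs, the TATA box letters on the opposite strand.
Il1rl2: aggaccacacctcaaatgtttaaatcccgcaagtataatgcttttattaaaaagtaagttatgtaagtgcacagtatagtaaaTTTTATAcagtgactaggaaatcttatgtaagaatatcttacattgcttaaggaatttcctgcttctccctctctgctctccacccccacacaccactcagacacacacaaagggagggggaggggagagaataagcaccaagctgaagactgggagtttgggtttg

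Il18r1, the ligand-binding chain of the interleukin-18 receptor, was the member that fell, opposite to its ligand. Its log ratio was 5.62, 5.56, 5.65, 5.66 and 5.13 in room air lungs 1 to 5 and 5.00, 4.91, 5.45, 4.67 and 4.76 in smoke lungs 1 to 5. Room air replicate 5 and smoke replicate 3 overlapped the other group, and the remaining lungs were apart. Il18r1 fell by 0.57 ± 0.146 (adjusted p 0.0397), 1.48-fold lower, with smoke below room air on 5 of 5 slides. Its adjusted p was the highest of the 10 calls. It was lost when room air replicate 1 (adjusted p 0.0602), 2 (0.0851), 3 (0.0966) or 4 (0.0834) or smoke replicate 1 (0.0802), 2 (0.0836), 4 (0.0917) or 5 (0.105) was left out. It was also lost with the scanner software's ratio (-0.29, adjusted p 0.764), without background correction (0.0658), with an offset of 10 (0.104) and with scaling between arrays (-0.32, adjusted p 0.259). Il18rap, the accessory chain needed for signalling, differed by 0.19 (adjusted p 0.509), and Il18bp, the soluble inhibitor that binds interleukin-18, by -0.036 (adjusted p 0.948).

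Il1r2, Il1r1, Il1rl2, Il1rl1, Il18r1 and Il18rap lie side by side on chromosome 1 in this order, so 6 genes of related receptors can be compared as neighbours. With smoke the neighbours did not move as a block: the differences in that order were 1.54, -0.29, 0.77, 0.20, -0.57 and 0.19. Il1r1, the signalling receptor for interleukin-1, was lower on each of the 5 slides, from -0.51 to -0.082, and had an adjusted p of 0.17, or 0.029 once the slide was a block. Without room air replicate 1, the highest of its group, the difference shrank to -0.19 (adjusted p 0.202). Il1rl1, the receptor for interleukin-33, differed by 0.068 to 0.44 over the slides (adjusted p 0.111) and passed when room air replicate 4 was left out (0.25, adjusted p 0.0352). Decoy and signalling receptor for interleukin-1 thus had opposite signs, and their difference from each other was not tested. Il1rap, the accessory chain that Il1r1, Il1rl1 and Il1rl2 share, differed by 0.14 (adjusted p 0.32).

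**Figure D3:**
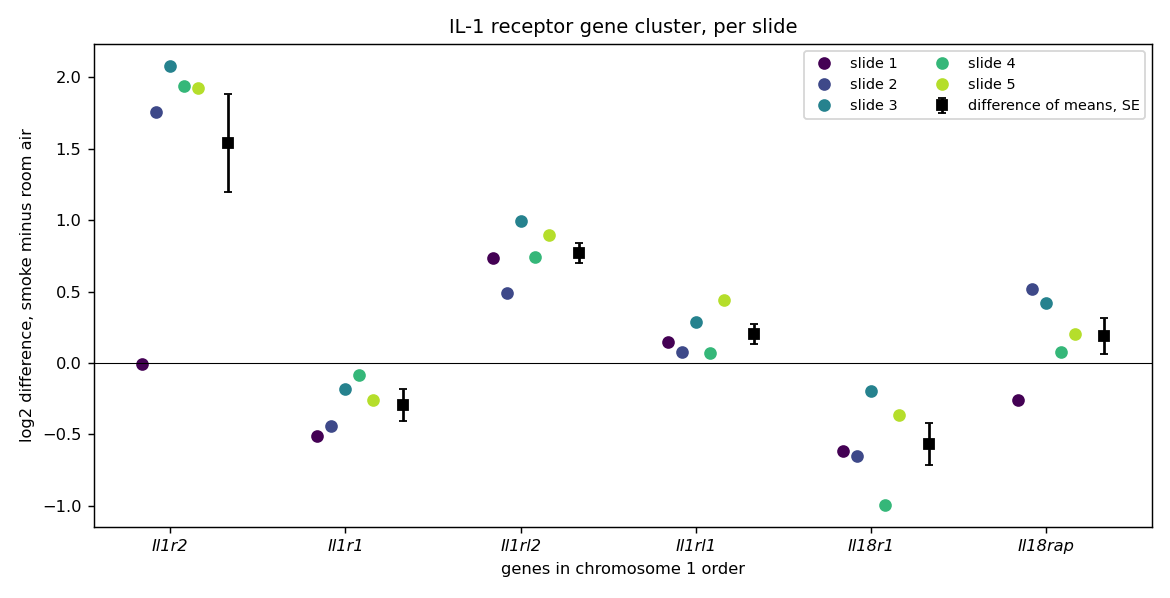
Smoke minus room air (log2 difference in log ratio) on each of the 5 slides for the 6 receptor genes of the chromosome 1 cluster, in chromosome order. Squares are the difference of group means with its SE. Il1rl2 is above 0 and Il18r1 below 0 on every slide, while Il1r2 is at -0.0070 on slide 1 and 1.76 or more elsewhere.

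Among the member receptors that signal through JAK kinases, Il7r, the private chain for interleukin-7 on T cells and innate lymphoid cells, rose most. It read 1.55, 1.65, 1.79, 1.45 and 1.33 in room air lungs 1 to 5. In smoke lungs 1 to 5 it read 2.46, 2.31, 2.88, 2.38 and 2.05. No smoke lung reached down to the room air group, and the highest and lowest lungs came from the same slides in both groups, 3 and 5. Il7r rose by 0.86 ± 0.137, 1.82-fold (adjusted p 0.00268, higher on 5 of 5 slides). A pair of further probes of the gene were dim, expressed on 5 and 0 of 10 arrays, and differed by 0.075 (adjusted p 0.617) and 0.049 (adjusted p 0.792), and averaging all 3 gave 0.33 (adjusted p 0.00904). Of the T cell list, Cd3d, the brightest, differed by 0.35 (adjusted p 0.349, and 0.0327 with the slide as a block) and Cd3g by 0.43 (0.153, and 0.00539 with the block). The part of T cells in the rise of Il7r was not tested.

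Il12rb1, the chain that the receptors for interleukin-12 and interleukin-23 share and that binds the p40 chain, rose together with Il12b. Its log ratios were -0.84, -1.05, -1.35, -1.03 and -0.84 in room air lungs 1 to 5 and -0.35, -0.54, -0.57, -0.78 and -0.44 in smoke lungs 1 to 5. Every smoke lung lay above every room air lung. Il12rb1 rose by 0.49 ± 0.106, 1.40-fold (adjusted p 0.0165). The call was lost with median centring (adjusted p 0.0925) and with the red channel alone at its 75th percentile (0.0774) or after quantile scaling (0.0613). Il12rb2 and Il23r, the private chains of both receptors, were expressed on 2 and 5 of 10 arrays and differed by 0.010 and -0.0040.

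Il10rb is the chain shared by the receptors for interleukin-10, interleukin-22 and the lambda interferons. Room air lungs 1 to 5 had log ratios of 1.61, 1.34, 1.45, 1.63 and 1.58, and smoke lungs 1 to 5 had 1.95, 1.62, 1.93, 1.89 and 2.12. Smoke replicate 2 lay within the room air group, and the other 4 smoke lungs lay above it. Il10rb rose by 0.38 ± 0.090, 1.30-fold (adjusted p 0.027). Without room air replicate 2 or 3 the adjusted p was 0.0652 or 0.0683, and without smoke replicate 1, 3, 4 or 5 it was 0.0705, 0.0618, 0.0545 or 0.0639, so each of these 6 lungs decided the call. The call was also lost with the scanner software's ratio (0.0744), an offset of 10 (0.0514), median centring (0.512), scaling between arrays (0.057), either red-channel setting (0.263 and 0.233) and the mean with a probe at background (0.104).

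Il10ra, the private chain for interleukin-10 on macrophages and lymphocytes, came close to the threshold. It read 2.39, 1.87, 1.93, 1.43 and 1.78 in room air lungs 1 to 5 and 2.41, 2.68, 2.45, 2.14 and 2.40 in smoke lungs 1 to 5. Room air replicate 1 overlapped the smoke group, and the other 4 lay below it. The difference of 0.54 ± 0.153 had an adjusted p of 0.0604, and of 0.0138 with the slide as a block. Both chains of the interleukin-10 receptor were thus higher on 5 of 5 slides, whereas interleukin-10 itself was expressed on 3 of 10 arrays.

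Il17rb, the receptor chain that binds interleukin-25, rose by a small amount. It read -0.65, -0.47, -0.45, -0.62 and -0.49 in room air lungs 1 to 5 and -0.31, -0.26, -0.31, -0.28 and -0.32 in smoke lungs 1 to 5. No lung overlapped the other group, and the smoke lungs hardly differed among themselves, while the rise on a slide ranged from 0.14 to 0.34. Il17rb rose by 0.24 ± 0.050, 1.18-fold (adjusted p 0.0135). The scanner software's ratio gave 0.84 (adjusted p 0.00179), and the call was lost with median centring (0.0932) and red quantile scaling (0.0801). A further probe, expressed on 1 of 10 arrays, differed by 0.12 (adjusted p 0.326). Its ligand Il25 was not expressed on any array, and Il17ra, the chain that all receptors of this family share, differed by 0.25 (adjusted p 0.742) with smoke replicate 2 at -0.93 and the other smoke lungs at 0.23 to 0.32.

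The receptors for interleukin-6, interleukin-4 and interleukin-13 were not called. Il6ra, the private chain for interleukin-6, differed by -0.24 (adjusted p 0.71) and varied widely within room air, from 0.24 to 1.63. Il6st, which encodes gp130, the signalling chain of the interleukin-6 family, differed by -0.34 (adjusted p 0.116) and was called once the slide was a block (0.0241). These chains carry interleukin-6 signals on hepatocytes, leukocytes and stroma. Il4ra, shared by the receptors for interleukin-4 and interleukin-13, differed by -0.20 (adjusted p 0.242), and Il13ra1, its partner, by 0.20 (adjusted p 0.375). Il2rg, the common gamma chain, differed by 0.076 (adjusted p 0.852), and Il21r, its partner for interleukin-21, by 0.29 (adjusted p 0.207, and 0.0439 with the slide as a block).

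Cxcr1, the neutrophil receptor that the array carries as Il8ra, was at background in room air and above it with smoke. Its log ratio was 0.010, 0.11, 0.12, 0.097 and 0.016 in room air lungs 1 to 5, with 0 of 5 above background. In smoke lungs 1 to 5 it was 0.52, 0.39, 0.77, 0.54 and 0.53, with 5 of 5 above background. The groups did not overlap. Cxcr1 rose by 0.48 ± 0.065 (adjusted p 0.001). As the room air lungs gave no signal above background, the size of the rise is uncertain. The measured red signal was 1.47-fold higher with smoke, and the log ratio 1.40-fold. Over the alternatives the difference ranged from 0.427 to 3.531 log2 units. Cxcr1 also passed with the scanner software's ratio (adjusted p 7.27e-05), whose difference of 3.38 is set against background and is no measured size.

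Il4i1, an enzyme of myeloid cells and B cells that restrains T cells by using up phenylalanine, had the widest split within a group. It read 3.67, 0.81, 0.81, 0.71 and 0.94 in room air lungs 1 to 5 and 2.53, 2.52, 2.49, 2.16 and 2.64 in smoke lungs 1 to 5. A single room air lung lay above all smoke lungs and the other 4 far below them. The difference of 1.08 ± 0.490 did not pass the threshold (adjusted p 0.272), and it was 1.65 without room air replicate 1 (adjusted p 9.97e-07). Il1bos was not expressed on any array.

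**Figure D4:**
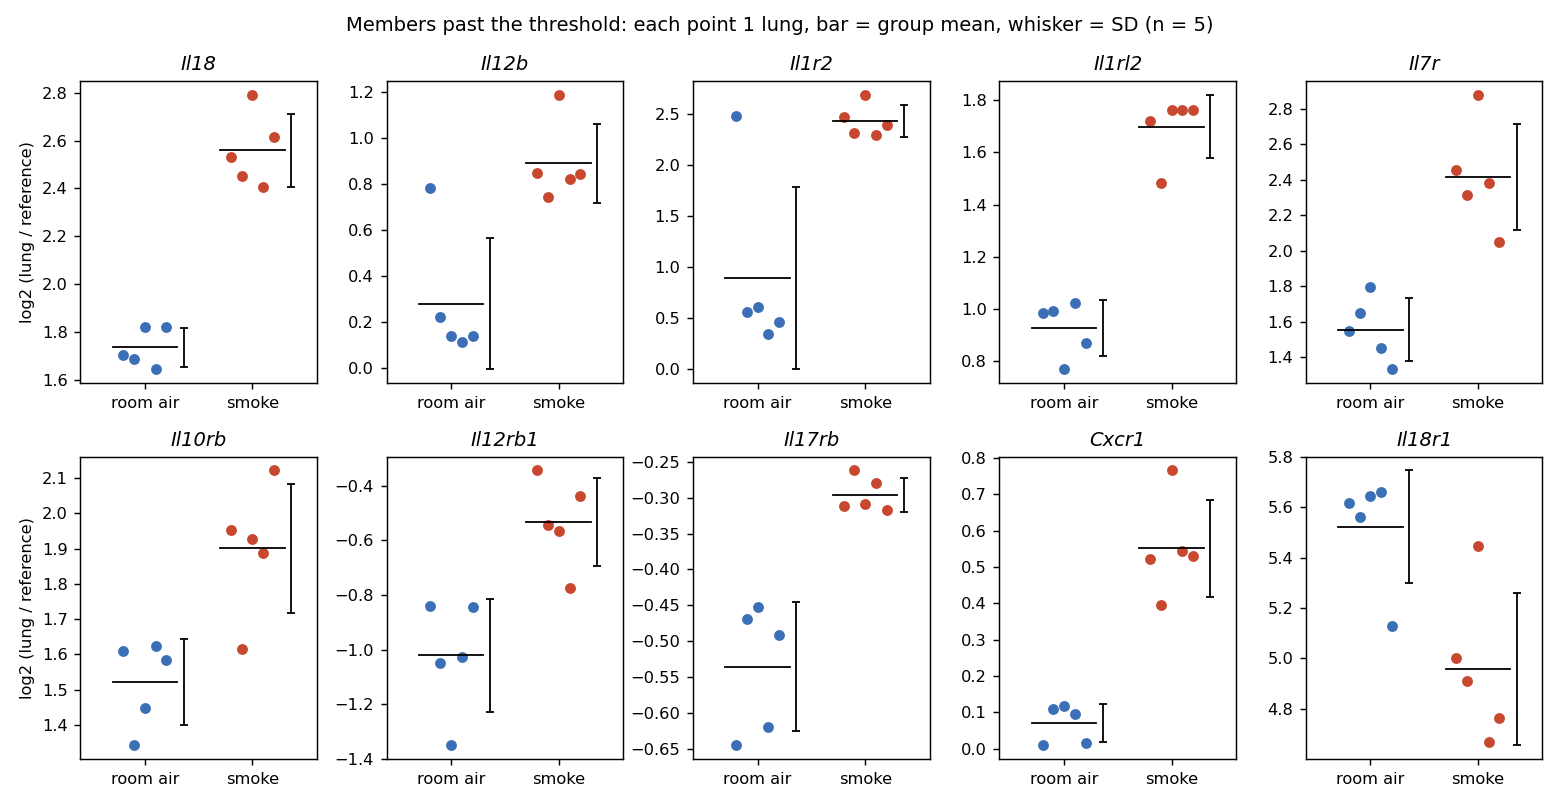
Log ratio (log2, lung over reference) of the 10 members that passed the threshold, in each of the 10 lungs. Bars are group means and whiskers the SD (n = 5). The groups are apart for Il18, Il1rl2, Il7r, Il12rb1, Il17rb and Cxcr1, and a single room air lung lies among the smoke lungs for Il12b and Il1r2.

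Genes that work with the interleukins but carry other names were followed as lists. Among 14 measured partner chains and ligands, of which Ifnlr1 is also a member, 4 rose and 0 fell, with a median difference of 0.13. With the slide as a block Cntfr, the receptor for ciliary neurotrophic factor, was lower too (-0.31, adjusted p 0.0996, and 0.00733 with the block). Csf2rb, the common beta chain of the receptors for interleukin-3, interleukin-5 and GM-CSF, read 1.87, 0.95, 0.72, 0.83 and 0.86 in room air lungs 1 to 5 and 2.46, 2.56, 2.42, 2.43 and 2.52 in smoke lungs 1 to 5. Both groups were apart, and room air replicate 1 was again the highest of its group. Csf2rb rose by 1.43 ± 0.182 (adjusted p 0.0007), and Csf2rb2, its duplicate for interleukin-3, by 1.37 (adjusted p 7.28e-05). The private chains Il3ra and Il5ra did not follow, as Il3ra differed by -0.056 (adjusted p 0.946) and Il5ra was not expressed. Crlf2, the receptor for TSLP that pairs with Il7r, rose by 0.47 ± 0.057 (adjusted p 0.000553), while Tslp itself differed by 0.053 (adjusted p 0.834). The Crlf2 call was lost with median centring (0.38, adjusted p 0.0652) and with the red channel alone at its 75th percentile (0.0562). Ebi3, the chain that joins p28 to form interleukin-27, rose by 0.63 (adjusted p 0.0281), a call that was lost when any of the 9 arrays other than room air replicate 1 was left out (adjusted p 0.0535 to 0.0725).

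Below the receptors few genes were called. Of 11 JAK kinases and STAT factors 0 passed the threshold, and Stat3, the brightest, differed by 0.20 (adjusted p 0.82), though without room air replicate 1 Stat3 (0.50, adjusted p 0.0163) and Jak2 (0.26, adjusted p 0.0277) did pass. Of 8 SOCS genes, which encode feedback inhibitors of this route, Socs2 rose by 0.39 (adjusted p 0.0351) and Socs5 fell by 0.28 (adjusted p 0.0132). The Socs2 call was lost without room air replicate 3 (0.0864) or 5 (0.0786) or smoke replicate 1 (0.0764), 2 (0.08), 4 (0.0796) or 5 (0.0522), and the Socs5 call with an offset of 10 (0.0718), median centring (0.0994) and the red channel alone at its 75th percentile (0.151). Of 19 genes that carry the signal of the interleukin-1 receptor 0 passed, with a median difference of 0.017, though with the slide as a block the ubiquitin ligase Traf6 was lower (-0.21, adjusted p 0.148, and 0.0374 with the block) and the kinase activator Tab1 higher (0.19, adjusted p 0.115, and 0.0428). Of 5 genes of interleukin-17 signalling 0 passed. Without room air replicate 1, a pair of the latter passed, the transcription factor Cebpb (0.31, adjusted p 0.0423) and the mRNA nuclease Zc3h12a (0.49, adjusted p 0.00113).

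The machinery that matures interleukin-18 was part of the lists. Of 7 inflammasome genes 2 rose and 0 fell, and these were Casp1, the protease that cleaves the precursor, and Pycard, the adaptor that recruits it. Casp1 read -0.29, -0.71, -0.88, -0.78 and -0.64 in room air lungs 1 to 5 and -0.11 to -0.034 with smoke, a rise of 0.57 ± 0.093 (adjusted p 0.00329, and 0.0667 with median centring). Pycard rose by 0.77 ± 0.099 (adjusted p 0.000746). For both genes the groups did not overlap and room air replicate 1 was the highest of its group. Casp4, the sensor of intracellular endotoxin, differed by 0.69 (adjusted p 0.308) with room air replicate 1 at 1.12, the other room air lungs at -0.97 to -0.75 and the smoke lungs at 0.17 to 0.30. The sensors Nlrp3 and Nlrc4 differed by -0.082 (adjusted p 0.755) and 0.17 (adjusted p 0.38), and Aim2 was not expressed.

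Of 8 measured genes known for type 2 responses, 1 rose, Retnla, a secreted product of macrophages and epithelium. It rose by 1.56 ± 0.320 (adjusted p 0.0126), but by the scanner software's ratio the difference was 0.098 (adjusted p 0.853). Over the alternatives the difference of Retnla ranged from 0.098 to 4.2. Fcer2a, the low-affinity IgE receptor, differed by 0.71 (adjusted p 0.0616, and 0.0173 with the slide as a block), and Gata3, the type 2 lineage factor, by -0.31 (adjusted p 0.0838, and 0.0142 with the block). The ligands Il4 and Il13, which drive these genes, were not called, as given above.

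Marker genes of the cells that carry these receptors shifted between the groups. Of 8 monocyte and macrophage genes 7 rose, with Csf1r, the brightest, at 0.58, Cd68 at 2.06 and Ms4a7 at 2.33, and the mean of the list was 0.82 to 1.22 in room air lungs and 2.11 to 2.49 in smoke lungs. The Csf1r call was lost with median centring (0.0591) and with the red channel alone at its 75th percentile (0.127) or after quantile scaling (0.06). With the scanner software's ratio the calls of Cx3cr1 (0.694), C1qa (0.669) and C1qb (0.139) were lost, and with an offset of 10 those of Cx3cr1 (0.0789) and C1qa (0.171). Of 10 alveolar macrophage genes 6 rose, and Chil3, the brightest, had a difference of 2.12 (adjusted p 0.000138). Among the 6, the Plet1 call was lost with 8 of the 10 arrays left out in turn (adjusted p 0.0571 to 0.117), with the scanner software's ratio (0.413), without background correction (0.0912), with an offset of 10 (0.154) and with median centring (0.0762), and the Mrc1 call with the scanner software's ratio (0.121). Macrophages are known sources of interleukin-18 and p40, and the part of these lists in the rises of Il18 and Il12b was not tested. Of 7 dendritic cell genes 3 rose, the brightest being Ccr7 at 0.45 (adjusted p 0.0402), a call lost with any 1 array left out other than room air replicates 1 and 5 and smoke replicate 4 (adjusted p 0.0606 to 0.104). Zbtb46, a factor of classical dendritic cells, was lower with the slide as a block only (-0.22, adjusted p 0.495, and 0.042 with the block).

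Of 9 neutrophil genes 2 rose, Mmp8, a stored collagenase, by 1.16 (adjusted p 0.021) and Camp, an antimicrobial peptide, by 0.60 (adjusted p 0.00881, and 0.0756 with the red channel alone at its 75th percentile). The mean of the list was 3.04, 1.86, 1.90, 1.59 and 1.85 in room air lungs 1 to 5 and 2.60, 2.43, 2.51, 2.09 and 2.23 in smoke lungs 1 to 5. Apart from room air replicate 1 the smoke lungs were the higher ones, as for Il1r2, which neutrophils carry. S100a9, the brightest gene of the list, differed by 0.16 (adjusted p 0.852), and the Mmp8 call was lost without room air replicate 2 (0.0547), 3 (0.0549) or 5 (0.0523) or smoke replicate 1 (0.0562). Ltf, which encodes lactoferrin, differed by 0.90 (adjusted p 0.207, and 0.0307 with the slide as a block). The part of neutrophils in the values of Il1r2 and Cxcr1 was not tested.

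Lymphocyte markers gave few calls. Of 10 T cell genes 0 rose with all lungs taken as unpaired, while Cd3d and Cd3g were higher with the slide as a block, as given above, and the mean of the list was 0.71 to 1.01 in room air and 0.74 to 1.19 with smoke. Of 7 NK cell genes Prf1, the pore-forming protein of killer cells, fell by 0.64 (adjusted p 0.0128), and Klrd1, the brightest, differed by -0.27 (adjusted p 0.45). The Prf1 call was lost with the scanner software's ratio (-0.40, adjusted p 0.783), an offset of 10 (0.0612) and scaling between arrays (0.0683). The mean of the NK list was 1.31 to 1.83 in room air and 0.98 to 1.34 with smoke. NK cells are known carriers of the interleukin-18 receptor, and the part of this list in the fall of Il18r1 was not tested. Of 7 B cell genes and 4 eosinophil genes 0 passed, and of 10 mast cell or basophil genes 0 rose and 2 fell, Cma1 by 0.52 and Fcer1a by 0.17. The Cma1 call was lost with any 1 array left out other than room air replicate 4 and smoke replicate 3 (adjusted p 0.0575 to 0.122), and the Fcer1a call with any of the 10 left out (0.05 to 0.0884). Hdc, which makes histamine, was lower with the slide as a block (-0.36, adjusted p 0.108, and 0.00373 with the block).

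Markers of structural cells were mostly not called. Of 7 alveolar type 2, 7 alveolar type 1 and 4 airway genes 0 passed the threshold, Sftpc differing by -0.13 (adjusted p 0.838). With the slide as a block the type 1 genes Aqp5 (-0.23, adjusted p 0.434, and 0.0266 with the block) and Akap5 (-0.29, adjusted p 0.253, and 0.0356) were lower, as was the endothelial gene Tek (-0.24, adjusted p 0.155, and 0.0159). Of 7 endothelial genes Pecam1 fell by 0.41, a call lost with any 1 array left out other than room air replicates 1 and 4 and smoke replicate 3 (0.0761 to 0.119). Of 5 fibroblast genes 0 rose and 3 fell, Pdgfra by 0.49, Dcn by 0.49 and Tcf21 by 0.35, the last lost with any 1 array left out other than room air replicate 4 (0.0575 to 0.122) and turned in sign by the scanner software's ratio (0.008). With that ratio the calls of Ebi3, Socs2, Ccr7, Flt3, Mmp8, Cma1, Fcer1a and Pecam1 were lost too, and except for Mmp8 also under other settings of background, normalization or channel.

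**Figure D5:**
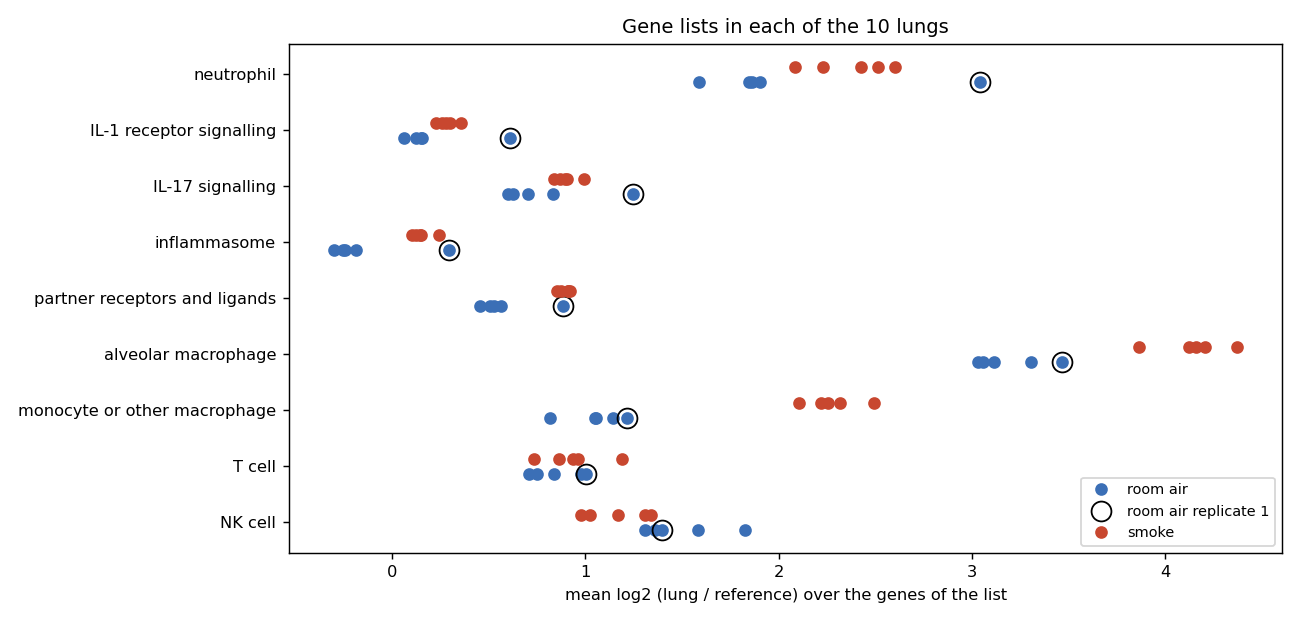
Mean log ratio (log2, lung over reference) over the genes of 9 lists, in each of the 10 lungs, with room air replicate 1 ringed. In the neutrophil list the ringed lung is highest at 3.04, whereas in the monocyte and macrophage list it stays with its group at 1.22, below the smoke lungs at 2.11 to 2.49.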

How the data were processed

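The deposited scanner files, written by Agilent Feature Extraction 9.5.3.1 (9.1 in the submitters' notes), give the intensity of each spot and its background in 2 channels, per the file headers. The same deposited files give a log10 ratio of red over green. A further deposited table holds log2 values that equal the mean of both channels with the groups exchanged. Groups and replicate numbers were taken from the sample labels, which match the scanner files. Mean intensities were corrected with normexp (offset 50), 43379 spots that are not controls were kept, ratios were normalized by loess within arrays, outlier spots were set missing, and replicate spots averaged. Smoke and room air (5 arrays each) were compared by limma 3.58.1 under R 4.3.3 (lmFit, eBayes), with 2-sided p-values adjusted over 41173 probes by Benjamini-Hochberg. A gene is represented by its brightest probe in red. Named were members past the threshold, all ligands, receptors differing by over 0.5, a set of fixed receptors, members whose probes disagree and called genes of the pathway lists, while Il21r, Il18rap, Il18bp, Il3ra, other receptors and other list genes were named after their values were seen. The members, lists and motifs were chosen with earlier results of these data known. Alternatives changed the test, thresholds, filters on dim probes, background correction, normalization, channel, probe summary and block, and left out each array in turn. The number of arrays limits the precision.

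The slides pair the arrays of the same number. After subtraction of the group means, arrays of 1 slide correlated across probes at 0.157, 0.461, 0.46, 0.55 and 0.415. Arrays of different slides had a median of -0.123 and reached 0.205 at most, so an alternative took the slide as a block. The limma fit without a block and the exact Wilcoxon test were tried on simulated log ratios. These were drawn independently for each array, without the pairing by slide. Background correction, normalization and the choice of probes were not tested in this way.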

Additional observations from a re-analysis of the deposited data

Results flagged for a closer look

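The groups looked at were those of members above background on all 5 arrays of the group, and of the called members, by which rule Il12b entered and Il1f9, above background in 4 of 5 room air lungs, did not enter in room air. In 9 of 47 room air groups and 3 of 49 smoke groups of 5 lungs, a single lung lay far from the others by Dixon's test, and chance gives about 1 in 20 for lungs that are independent of each other. Lungs of 1 slide were not (their arrays correlated at 0.157 to 0.55), and in 3 of the 12 cases the lung of the other group on that slide lay at the same end of its own group. Room air replicate 1 was the high lung in 6 of them: Il33 at 2.06, with the others at 0.91 to 1.12, Il12b at 0.78 (0.11 to 0.22), Il4i1 at 3.67 (0.71 to 0.94), Il18bp at 1.91 (1.09 to 1.31, with smoke replicate 1 at 1.40 and the other smoke lungs at 1.12 to 1.36), Il1r2 at 2.48 (0.35 to 0.61) and Il13ra1 at 0.61 (-0.048 to 0.14). Room air replicate 4 was high for Il11, at -0.54 against -1.44 to -1.30, as was smoke replicate 4, at -0.68 against -1.39 to -0.96. It was low for Il2rg, at 0.24 against 0.74 to 0.91. Room air replicate 5 was low for Il18r1, at 5.13 against 5.56 to 5.66. Smoke replicate 3 was high for Il12b, at 1.19 against 0.75 to 0.85, and smoke replicate 2 was low for Il1rl2, at 1.48 against 1.72 to 1.76, and for Il17ra, at -0.93 against 0.23 to 0.32, where room air replicate 2 was also the lowest of its group, at -0.80 against -0.44 to 0.21. The causes were not tested.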

How the results depend on the processing

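Of 1804 member values under the alternatives, 1741 stayed on their side of the threshold, and 46 lost and 17 gained a call. Of these values 1579 belong to the 71 uncalled members, so the 46 losses fall on the 225 values of the 10 called members. Among the losses is every called member under the exact Wilcoxon test, which could call no probe here. Among the 10 called members 0 values turned in sign, and 94 values of 35 uncalled members did. Of the list genes, only the 35 called ones and the 16 of JAK and STAT and of interleukin-17 signalling were run across the alternatives. The other list genes were run with the slide as a block and with the exact Wilcoxon test. Of the 1169 values of the 35 and the 16, 977 stayed, 187 lost and 4 gained a call, and the 187 losses fall on the 801 values of the 35. Of the called list genes only Tcf21 turned in sign, to 0.008 with the scanner software's ratio, and 10 values of 3 uncalled ones did. Main counts were 2906 probes, 9 members higher and 1 lower. Leaving out 1 array gave 2102 to 3660 probes, 7 to 15 members higher and 0 to 1 lower. The replicate block, which pairs the arrays of a slide, gave 5019 probes and 3 members lower, and besides Il34, Il1r1, Il10ra, Il21r and Il6st it changed no call of a member. The exact Wilcoxon test gave 0 probes, 0 members higher and 0 lower. Probes came to 1434 with median centring, 1759 with the red channel alone at its 75th percentile, 1428 at an adjusted p under 0.01 and 790 with a fold over 1.5 as well, and in the last 2 settings 4 and 5 members were higher and 0 lower. Members lower were 0 with the scanner software's ratio, without background correction, with offset 10 and with scaling between arrays. With the filter on dim green signals the count was also 0, but there the Il18r1 probe was not tested. It was above background in green on 1 of 10 arrays. The deposited table gave 23 probes (2 higher and 21 lower as labelled, 21 higher and 2 lower with each column given to the array it equals) and 0 members in either direction. The causes were not tested. Signals near background limit the sizes of dim members, such as Il12b, Cxcr1 and Il17rb.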
